A study of Mus musculus with 6 samples.

Results

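Tcf4, Siglech, Runx2, Atp1b1, Bcl11a and Ly6d are genes known from plasmacytoid dendritic cells (pDCs), chosen by symbol and leaving out nucleic acid sensors, chemokine receptors and interferon-induced genes. They are 6 of the 14535 genes in a table of raw RNA-seq counts from type 2 conventional dendritic cells (cDC2s) of mouse spleen, and all 6 were tested among 11934 genes that passed a filter on low counts. The first group is 3 libraries from CD11c-Cre Irf4fl/fl C57BL/6 mice, called IRF4-deficient, in which Cre recombinase driven by the CD11c (Itgax) promoter removes the floxed part of the transcription factor gene Irf4. The second is 3 wild-type (WT) libraries from C57BL/6 mice. The labels name no group with Cre alone, so effects of Cre and of Irf4 loss cannot be told apart. They give no age, sort gate or pooling of mice, and do not say that replicates came from separate animals, so the p-values reflect only how far these libraries spread, which may be technical variation.

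pDCs are dendritic cells specialised in making type I interferon after sensing viral nucleic acids, while cDC2s specialise in presenting antigen on MHC class II. The pDC state is held by TCF4 (E2-2), an E protein that binds E-box DNA, and is opposed by ID2, which lacks a DNA-binding region and ties up E proteins. BCL11A and RUNX2 act beside TCF4 in pDCs, and Siglec-H is a sialic acid-binding-type lectin of the mouse pDC surface that signals through the adaptor DAP12.

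The 6 genes did not move as a unit. Atp1b1, Runx2 and Siglech were higher in IRF4-deficient cDC2s, 12.1-fold, 2.04-fold and 2.43-fold. Bcl11a was lower, 1.20-fold. Tcf4 stood at 126.6 ± 8.03 CPM in IRF4-deficient against 126.3 ± 13.3 CPM in WT cells (mean ± SD, n = 3 each), and neither Tcf4 nor Ly6d was called. Of the 6, 3 were called higher and 1 lower at an edgeR adjusted p under 0.05, beside 9.87% and 10.5% of all tested genes. Only Atp1b1 and Runx2 were called without IRF4-deficient replicate 2, and likewise without WT replicate 2. The median log2 fold change of the 6 was 0.80, and that of all tested genes 0.003. This median lies midway between Runx2 (1.03) and Ly6d (0.57). The value of Ly6d ran from -0.41 to 1.11 when 1 library was left out. The 6 genes were chosen with earlier results of these data known. CPM is the count of a gene scaled to a common library size, here with TMM factors, which correct for library composition.

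**Figure D1:**
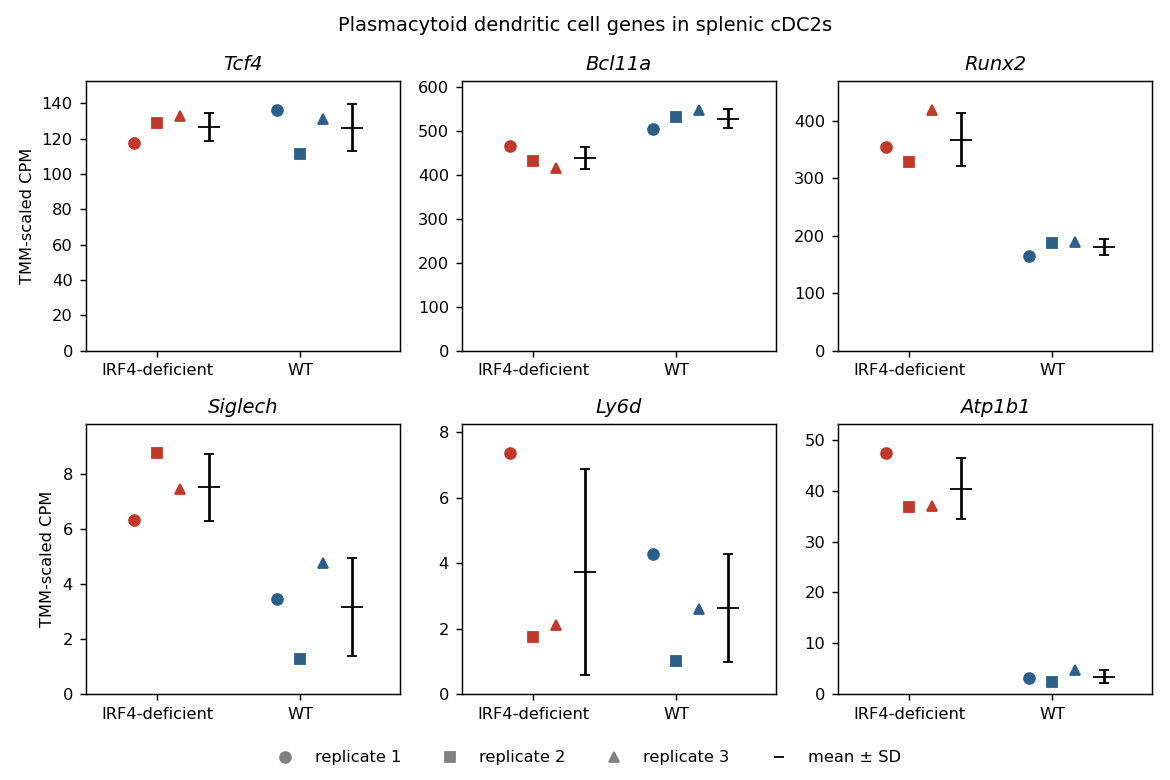
Level of each of the 6 genes (TMM-scaled CPM, linear axes from 0) in the 3 IRF4-deficient and 3 WT libraries, with the mean and SD beside the points. Atp1b1 and Runx2 are separated widely between the groups, Siglech and Bcl11a narrowly, and the Tcf4 and Ly6d groups overlap.

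The windows before the start sites of the 3 genes that were called higher are shown, chosen by that result. Each is the 250 bases upstream of the start site that RefSeq lists (build GRCm38.p6), written 5′ to 3′ on the strand of the gene, with matches to the E-box letters CANNTG in capitals.
Atp1b1, chr1:164458356-164458605, minus strand: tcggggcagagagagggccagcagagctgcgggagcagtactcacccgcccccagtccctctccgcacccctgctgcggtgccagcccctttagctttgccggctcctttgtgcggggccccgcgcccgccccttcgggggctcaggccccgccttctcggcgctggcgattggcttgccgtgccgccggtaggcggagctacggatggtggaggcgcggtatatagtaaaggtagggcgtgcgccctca
Siglech, chr7:55767934-55768183, plus strand: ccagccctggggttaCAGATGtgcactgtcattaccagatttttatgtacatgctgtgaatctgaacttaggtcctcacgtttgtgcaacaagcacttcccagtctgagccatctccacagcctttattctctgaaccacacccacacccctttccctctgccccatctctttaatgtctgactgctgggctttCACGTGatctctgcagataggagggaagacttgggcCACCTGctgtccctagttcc
Runx2, chr17:44814628-44814877, minus strand: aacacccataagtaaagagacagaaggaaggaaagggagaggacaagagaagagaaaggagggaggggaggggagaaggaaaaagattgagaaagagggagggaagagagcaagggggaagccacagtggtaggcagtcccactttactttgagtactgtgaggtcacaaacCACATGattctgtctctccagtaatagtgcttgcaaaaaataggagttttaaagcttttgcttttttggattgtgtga
The Siglech window held 3 E-box matches, the Runx2 window 1 and the Atp1b1 window 0. The window of Bcl11a, which was lower, is not shown and held 1. Over 32851 RefSeq windows of the same length, 66.2% held at least 1 such match and 12.2% at least 3. The Runx letters ACCACA, searched on both strands, occurred 1 time each in the Siglech and Runx2 windows and in 14% of all windows. In the Runx2 window this match, from base -80 to -75 counted from the start site, overlaps the E-box match from -78 to -73. The windows differed in base composition, with 70.4% G and C for Atp1b1, 50.8% for Siglech and 44.8% for Runx2. The annotated gene span reaches into the last few bases of the Siglech window. It covers most of the Runx2 window, with both overlapping matches, and all of the Bcl11a window. Which start site the libraries used cannot be read from counts per gene.

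Total counts ran from 7949462 to 10609420 in the IRF4-deficient and from 7421605 to 11459920 in the WT libraries. Irf4 itself was at 65.3 to 90.8 CPM in the IRF4-deficient libraries, with 90.8, 65.3 and 84.0 CPM in order of replicate, against 291.8, 295.8 and 345.0 CPM in those of WT, so no library went against its label. The cDC2 label was checked on 13 markers, none at 0, of which 2 were called higher and 7 lower. The number called lower was 5 without IRF4-deficient replicate 1, IRF4-deficient replicate 2 or WT replicate 2, and 6 without WT replicate 1. Itgam and Itgax, the CD11b and CD11c genes, averaged 1869 and 1700 CPM in IRF4-deficient against 617.3 and 1393 CPM in WT libraries, and Sirpa, at 981.4 CPM in IRF4-deficient against 909.4 CPM in WT, was not called. Cd4 and Cd209a averaged 131.3 and 128.6 CPM in IRF4-deficient against 554.8 and 317.8 CPM in WT libraries, and Zbtb46, Flt3, H2-Aa, H2-Ab1 and Cd74 were also lower. Markers of red pulp macrophages summed to 1608, 2320 and 3039 CPM in the IRF4-deficient libraries, in order of replicate, and to between 961.4 and 1287 CPM in WT, with none at 0. Of these 12 markers 7 were called higher, and 3 to 11 in the fits that left out 1 library, with 4 without IRF4-deficient replicate 2, 11 without IRF4-deficient replicate 1 and 3 without WT replicate 1. B cell markers summed to between 207.1 and 269.9 CPM in IRF4-deficient and between 249.0 and 335.0 CPM in WT libraries, with 1 of 12 tested called higher (0 without WT replicate 2) and 4 lower. T cell markers summed to between 38.2 and 44.0 CPM in IRF4-deficient and between 35.7 and 47.6 CPM in WT libraries, and NK and neutrophil markers to at most 6.06 and 2.0 CPM in IRF4-deficient against 6.91 and 12.5 CPM in WT libraries, with Eomes and Camp at 0 in the IRF4-deficient libraries. The part of such cells in the results below was not tested. In bulk samples, more cells of a type and more RNA per cell cannot be told apart.

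Of the 3 transcriptional regulators, Tcf4 (chromosome 18, 69343356 to 69689079, plus strand, GRCm38) had 117.6, 129.2 and 133.1 CPM in IRF4-deficient replicates and 136.4, 111.2 and 131.3 CPM in WT replicates. The groups overlap fully. The log2 fold change, 0.01 (standard error, SE, 0.11), was not called (edgeR adjusted p = 0.980). The counts, summing to 3518 in IRF4-deficient against 3170 in WT libraries, gave a depth-scaled ratio of 1.02 with a 95% interval of 0.967 to 1.07, an exact binomial interval that covers counting error only.

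Bcl11a (chromosome 11, 24078056 to 24174123, plus strand) encodes a zinc finger repressor that pDC and B cell development need. It was at 466.1, 433.2 and 417.2 CPM in IRF4-deficient against 505.1, 532.6 and 548.7 CPM in WT replicates, so the highest IRF4-deficient library was below the lowest WT library. Its log2 fold change of -0.27 (SE 0.08, edgeR adjusted p = 0.0204) was larger in size than that of 51.2% of tested genes. The call was lost without IRF4-deficient replicate 2, WT replicate 2 or WT replicate 3 (adjusted p = 0.0722, 0.0762 and 0.0746), with a range over the 6 fits that left out 1 library of -0.31 to -0.24 on the log2 scale.

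Runx2 (chromosome 17, 44495987 to 44814797, minus strand), a Runt-domain factor best known from bone formation and needed for mature pDCs to leave the bone marrow in mice, was at 355.3, 327.9 and 419.0 CPM in IRF4-deficient against 164.2, 187.9 and 188.5 CPM in WT replicates. Every IRF4-deficient library was above every WT library. The log2 fold change was 1.03 (SE 0.10, edgeR adjusted p = 3.52e-07), larger in size than that of 90.2% of tested genes. The highest value was in IRF4-deficient replicate 3, which also had the highest sum of red pulp macrophage markers, and without this library the log2 fold change was 0.92 (adjusted p = 6.58e-07). Of the annotated exon bases of Runx2, 5.87% are shared with an antisense transcript, Runx2os1, and the strand setting of the counts is not given in the sources used here.

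Among surface proteins, Siglech (chromosome 7, 55768178 to 55778925, plus strand) was near the bottom of the tested range, with a mean level above only 17.9% of tested genes. It had 69, 71 and 67 counts in IRF4-deficient against 25, 14 and 35 counts in WT replicates, or 6.35, 8.77 and 7.46 CPM in IRF4-deficient against 3.46, 1.27 and 4.78 CPM in WT replicates. The groups did not overlap, as was so for 4 of the 6 genes and for 35.6% of all tested genes. The log2 fold change was 1.28 (SE 0.42, edgeR adjusted p = 0.0354), and the ratio of summed counts, 207 in IRF4-deficient to 74 in WT libraries, was 2.56 (95% interval 1.95 to 3.38, counting error only). The call was lost without IRF4-deficient replicate 2 or 3 or WT replicate 1 or 2 (adjusted p = 0.108, 0.0594, 0.0638 and 0.164), and without WT replicate 2, the lowest library, the log2 fold change was 0.86.

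Tyrobp, the gene of the Siglec-H adaptor DAP12, averaged 588.3 CPM in IRF4-deficient against 514.8 CPM in WT cells and was not called (edgeR adjusted p = 0.135). Of the 6 other Siglec genes 3 were called higher and 1 lower, beside 9.87% and 10.5% of all tested genes. Siglecf, counted under its older symbol Siglec5, was 17.2-fold higher at 30.9 ± 6.49 CPM against 1.85 ± 0.804 CPM in WT (SD, n = 3 each). Cd33 was 2.93-fold higher, and Siglece had a log2 fold change of 0.82 (SE 0.12). Cd22, a B cell inhibitory receptor that binds sialic acid, was the one called lower (log2 fold change -0.40, SE 0.08).

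Ly6d (chromosome 15, 74762056 to 74763620, minus strand), a GPI-anchored surface protein gene that marks B lineage-committed lymphoid progenitors as well as pDCs, was the lowest of the 6 in counts. It had 80, 14 and 19 counts in IRF4-deficient against 31, 11 and 19 counts in WT replicates, or 7.36, 1.73 and 2.12 CPM in IRF4-deficient against 4.29, 1.0 and 2.60 CPM in WT replicates. IRF4-deficient replicate 1 alone was above all WT libraries. Ly6d was not called (log2 fold change 0.57, SE 0.60, edgeR adjusted p = 0.577), and without that replicate the log2 fold change was -0.41 (adjusted p = 0.739).

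The levels of 13 B cell markers were set beside Ly6d library by library. Their sum was at 269.9, 207.1 and 209.3 CPM in IRF4-deficient against 335.0, 249.0 and 312.5 CPM in WT replicates. The sum, like Ly6d, was highest in replicate 1 among the IRF4-deficient and lowest in replicate 2 among the WT libraries. The single markers did not all follow this order, since 6 of 13 were highest in replicate 1 among the IRF4-deficient libraries and 10 of 13 lowest in replicate 2 among those of WT. Cd79b, a B cell receptor chain gene and the marker called higher, was at 33.4, 36.1 and 49.2 CPM in IRF4-deficient against 29.5, 16.7 and 22.5 CPM in WT replicates, so that replicate 1 was its lowest IRF4-deficient library. The part of B cell RNA in the Ly6d values was not tested.

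**Figure D2:**
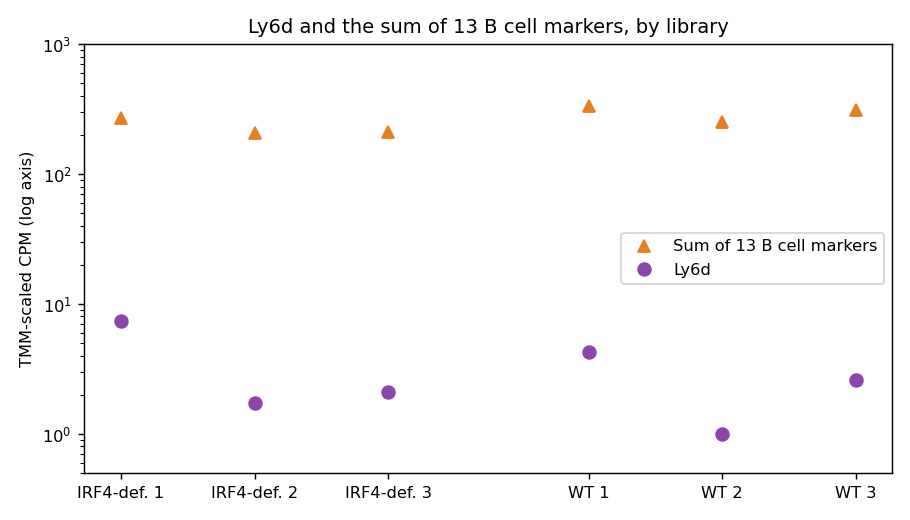
Level of Ly6d and summed level of 13 B cell markers (TMM-scaled CPM, log axis) in each IRF4-deficient (IRF4-def.) and WT library. In both, IRF4-deficient replicate 1 is the highest library of its group and WT replicate 2 the lowest of its group, at 7.36 and 1.0 CPM for Ly6d and 269.9 and 249.0 CPM for the sum, while 7 of 13 single markers were highest in another IRF4-deficient library.

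Of 4 tested relatives of Ly6d, 1 was called, beside 20.4% of all tested genes. Ly6a, the gene of the stem cell antigen Sca-1, was lower at 19.1 ± 5.40 CPM in IRF4-deficient against 31.2 ± 4.35 CPM in WT cells, and its adjusted p of 0.0185 was 0.0600, 0.0551 and 0.10 without IRF4-deficient replicate 3, WT replicate 1 and WT replicate 2. Ly6c2, a monocyte and pDC surface protein gene, was at 2.92 CPM in IRF4-deficient against 1.54 CPM in WT cells and was not called. Its near-identical relative Ly6c1 can share its reads, so these counts are uncertain.

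Atp1b1 (chromosome 1, 164437109 to 164458355, minus strand) encodes the beta-1 subunit of the sodium pump, the ATPase that exchanges sodium for potassium across the plasma membrane. It had 515, 298 and 332 counts in IRF4-deficient against 23, 25 and 35 counts in WT replicates, or 47.4, 36.8 and 37.0 CPM in IRF4-deficient against 3.18, 2.27 and 4.78 CPM in WT replicates. Every IRF4-deficient library was far above every WT library. The log2 fold change of 3.60 (SE 0.25, edgeR adjusted p = 3.86e-09) was larger in size than that of 99.7% of tested genes, and the ratio of summed counts was 12.6 (95% interval 10.1 to 16.0, counting error only). Of its annotated exon bases 18.7% are shared with Nme7 on the opposite strand. Nme7 was at 10.3, 8.65 and 5.46 CPM in IRF4-deficient against 8.16, 10.3 and 9.01 CPM in WT replicates and was not called (adjusted p = 0.740).

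The sodium pump is built of a catalytic alpha subunit, a beta subunit that carries it to the membrane, and a small FXYD regulator. Of 7 other pump genes 4 had a row, and all 4 were tested. Beside 9.87% of all tested genes, all 4 were called higher in edgeR. Of these, Atp1b3, another beta subunit gene, was at 106.8, 114.1 and 88.6 CPM in IRF4-deficient against 77.2, 63.5 and 57.5 CPM in WT replicates (log2 fold change 0.64, SE 0.13). The regulator Fxyd5 was at 180.6, 214.9 and 247.2 CPM in IRF4-deficient against 148.8, 127.1 and 104.5 CPM in WT replicates (log2 fold change 0.76, SE 0.13). In both, every IRF4-deficient library was above every WT library. The number of the 4 called higher was 3 without WT replicate 3.

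Compared per length, as mean CPM per kilobase of annotated exons, Atp1b3 was at 43.2 in IRF4-deficient against 27.6 in WT cells, and Atp1b1 at 13.1 in IRF4-deficient against 1.11 in WT cells. Atp1b1 was thus the lower of the pair in both groups. On the same per-length scale the order of the 6 genes in IRF4-deficient cells was Runx2 (41.6), Bcl11a (33.3), Atp1b1 (13.1), Ly6d (5.02), Tcf4 (4.62) and Siglech (2.23). In WT cells it was Bcl11a (40.1), Runx2 (20.4), Tcf4 (4.61), Ly6d (3.53), Atp1b1 (1.11) and Siglech (0.937). The long exon set annotated for Tcf4, 27382 bases over all transcripts, lowers its value on this scale, and the neighbours Ly6d and Tcf4 lie within the spread of Ly6d between libraries. By library, Siglech overlapped with Ly6d in both groups, and Atp1b1 overlapped with Siglech and with Ly6d in WT cells.

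**Figure D3:**
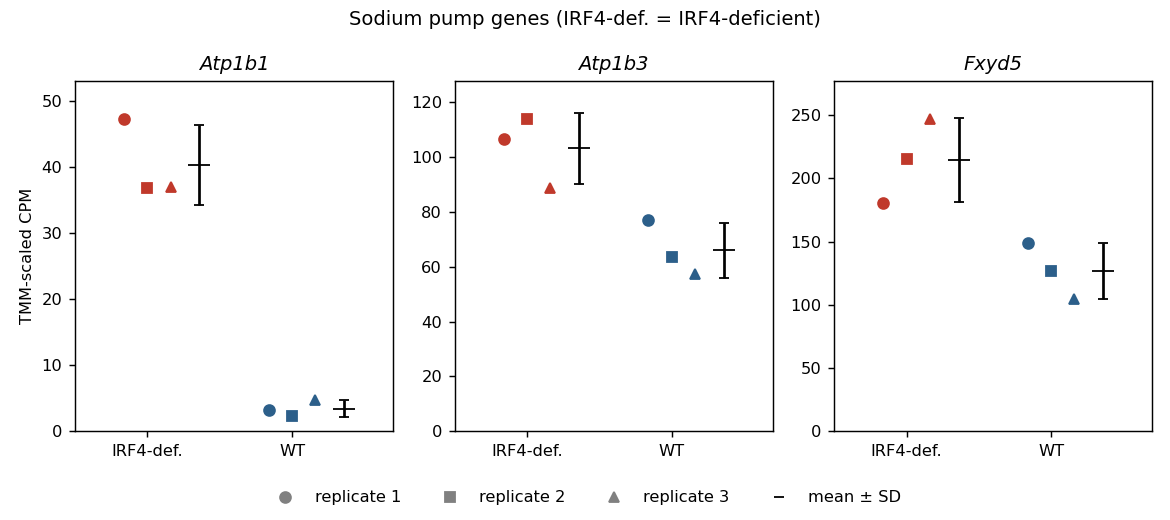
Levels of the sodium pump genes Atp1b1, Atp1b3 and Fxyd5 (TMM-scaled CPM, linear axes from 0) in IRF4-deficient (IRF4-def.) and WT libraries, with the mean and SD. In each panel the 3 IRF4-deficient libraries lie above the 3 WT libraries, by the widest ratio in Atp1b1.

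Factors that act with or against TCF4 differed between the groups although Tcf4 was not called. The list of E proteins, their Id antagonists and Zeb2 had 4 tested genes. Of these, 2 were called higher and 1 lower, beside 9.87% and 10.5% of all tested genes. Id2, the antagonist of E proteins that favours conventional over plasmacytoid fate, was lower at 144.1, 136.1 and 115.9 CPM in IRF4-deficient against 180.1, 166.8 and 171.1 CPM in WT replicates (log2 fold change -0.39, SE 0.10, edgeR adjusted p = 0.00931). Zeb2, which represses Id2 in mouse dendritic cell progenitors, was higher at 403.1, 439.4 and 576.7 CPM in IRF4-deficient against 346.0, 339.8 and 365.1 CPM in WT replicates (0.43, SE 0.11, adjusted p = 0.00909). Tcf12, an E protein gene, was also higher (0.57, SE 0.14), while Tcf3, the E2A gene, stood at 52.9 CPM in IRF4-deficient against 53.1 CPM in WT libraries and was not called. Zeb2, like Runx2, was highest in IRF4-deficient replicate 3, and its log2 fold change was 0.26 without that library. All 3 calls held in each fit that left out 1 library, with adjusted p up to 0.0460. Id3 had too few counts to be tested, with a mean of 1.15 CPM in IRF4-deficient against 0.821 CPM in WT cells.

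Of the Runx relatives, Runx3 was called higher with a log2 fold change of 0.38 (SE 0.09, edgeR adjusted p = 0.00646). Runx1 was at 157.5, 226.9 and 231.2 CPM in IRF4-deficient against 178.3, 179.0 and 179.8 CPM in WT replicates and was not called (adjusted p = 0.297, and 0.0148 without IRF4-deficient replicate 1, the low library). Cbfb, the shared partner subunit of Runx proteins, was not called either, at 238.5 CPM in IRF4-deficient against 275.2 CPM in WT cells. Bcl11b, the paralogue of Bcl11a used by T cells, averaged 2.56 CPM in IRF4-deficient against 0.730 CPM in WT cells and was not called (adjusted p = 0.116, and 0.0317 without WT replicate 2).

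Among 29 further genes known from mouse pDCs, 27 had a row and 23 were tested. Of the 23, 8 were called higher and 5 lower, beside 9.87% and 10.5% of all tested genes. The median log2 fold change of the 23 was 0.48, and that of all tested genes 0.003. The number called lower was 3 without IRF4-deficient replicate 1 or 2 or WT replicate 1 or 2. These genes were listed with earlier results of the same libraries known. Of the regulators, Irf8, needed for pDC function and for type 1 conventional dendritic cells (cDC1s), was 2.67-fold higher. It is also among 9 cDC1 markers, of which 7 were called higher (4 without IRF4-deficient replicate 2 and 4 without WT replicate 2) and 1 lower, and which summed to between 368.7 and 498.9 CPM in IRF4-deficient and between 276.6 and 293.0 CPM in WT libraries. Cbfa2t3, a corepressor that acts with E proteins, was higher at 711.1, 794.6 and 822.7 CPM in IRF4-deficient against 599.7, 617.0 and 598.7 CPM in WT replicates (log2 fold change 0.36, SE 0.08). Spib, an Ets factor of pDCs and B cells, was at 118.5 ± 3.43 CPM in IRF4-deficient against 94.6 ± 17.7 CPM in WT cells and was not called (edgeR adjusted p = 0.0668, and 0.00852 without WT replicate 3). Irf7, the master regulator of type I interferon genes, at 70.5 CPM in IRF4-deficient against 86.8 CPM in WT cells, was not called (0.131, and 0.0301 without WT replicate 3).

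Among surface and signalling genes of the same list, Cd7, an immunoglobulin superfamily receptor gene, was at 443.7, 396.7 and 482.0 CPM in IRF4-deficient against 156.4, 148.6 and 154.9 CPM in WT replicates, 2.88-fold higher, and Lifr, the leukaemia inhibitory factor receptor gene, 2.33-fold. Lair1, an inhibitory collagen receptor gene, had a log2 fold change of 0.48 (SE 0.09). Ccr9, a gut-homing chemokine receptor of pDCs, was lower at 48.0 ± 3.68 CPM in IRF4-deficient against 79.6 ± 15.6 CPM in WT cells. Bst2, the tetherin gene whose product is used to stain mouse pDCs, was at 24.2, 23.7 and 31.5 CPM in IRF4-deficient against 22.1, 16.0 and 17.8 CPM in WT replicates and was not called (edgeR adjusted p = 0.0667, and 0.0444 without WT replicate 1). Lag3, an inhibitory receptor gene, was lower (adjusted p = 0.0327), but was not called when any one of 5 libraries was left out (adjusted p 0.0548 to 0.132), and without IRF4-deficient replicate 3 its log2 fold change was -1.39, against -0.89 with all libraries.

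Among sensors and nucleases of the list, Tlr7, the receptor for single-stranded RNA, was lower at 83.0, 91.7 and 117.0 CPM in IRF4-deficient against 193.5, 176.8 and 172.9 CPM in WT replicates (log2 fold change -0.90, SE 0.12). Tlr9, the DNA receptor gene, was at 281.4 CPM in IRF4-deficient against 280.0 CPM in WT cells. Rnase6, a ribonuclease gene, was lower (-0.83, SE 0.10). Pld4, an endolysosomal nuclease gene, had a log2 fold change of -0.23 (SE 0.08, adjusted p = 0.0406) that did not pass without robust shrinkage (0.0519), with no filter (0.0519), after removal of 2 abundant RNAs (0.0532), nor when any one of 5 libraries was left out (0.0680 to 0.142).

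Of the low-level genes of the list, Cox6a2 and Smim5 were called higher. Cox6a2, a cytochrome c oxidase subunit gene known from striated muscle and mouse pDCs, had 51, 68 and 49 counts in IRF4-deficient against 11, 3 and 4 counts in WT replicates, a depth-scaled ratio of 8.54 (95% interval 5.24 to 14.8, counting error only). Its log2 fold change of 3.04 was 3.94 without WT replicate 1, the WT library with the most counts of it. Smim5, a small membrane protein gene counted under its older symbol 2210020M01Rik, had 163, 117 and 126 counts in IRF4-deficient against 25, 21 and 18 in WT replicates, a ratio of 5.80 (4.45 to 7.68). Pacsin1, a membrane-bending adaptor gene known from pDCs, had 66 counts in IRF4-deficient against 39 in WT libraries and was not called (edgeR adjusted p = 0.452). Klk1, a kallikrein gene of mouse pDCs, had 2 counts in IRF4-deficient against 8 in WT libraries and was not tested.

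**Figure D4:**
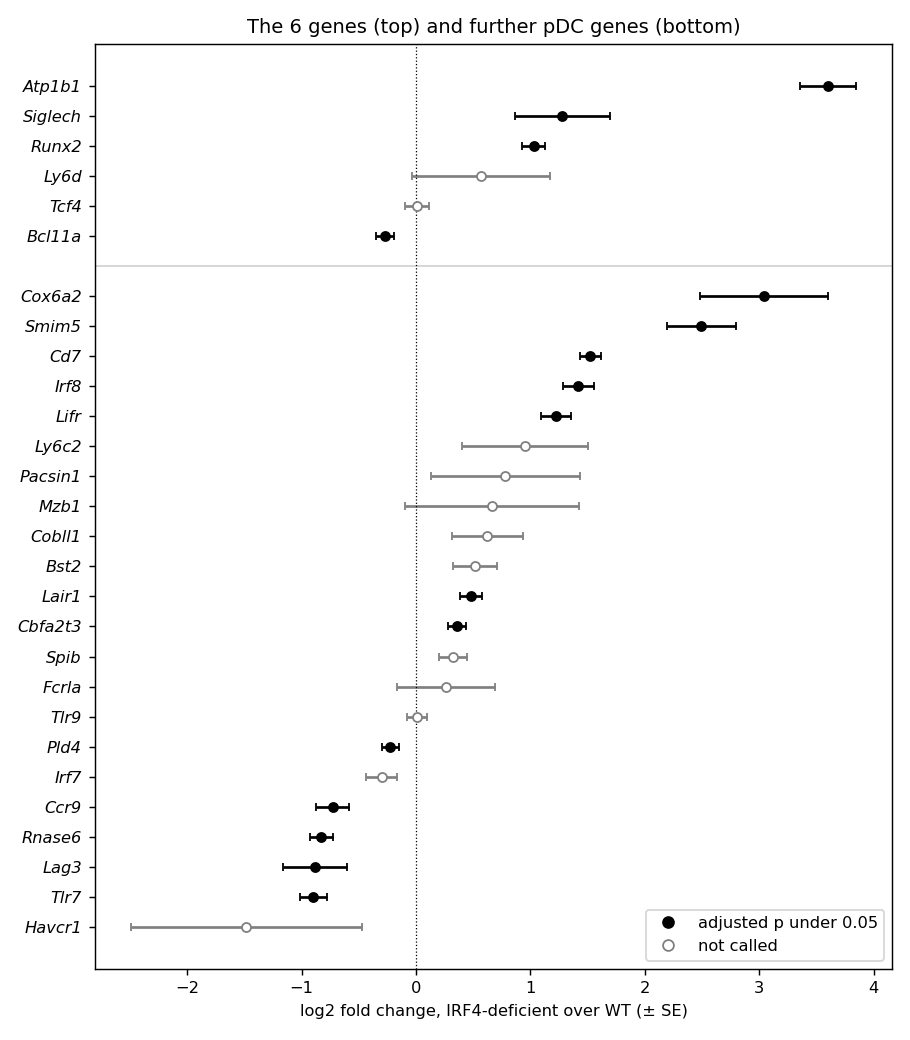
Log2 fold change of IRF4-deficient over WT (± SE from the quasi-likelihood F statistic) for the 6 genes at the top and further pDC genes below, each ordered by value. Filled points passed an edgeR adjusted p under 0.05, 4 of 6 at the top, and lie on both sides of 0 in both parts.

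Profile likeness was measured as the root mean square difference over 6 libraries in log2 CPM, after the mean of each gene was subtracted. Among 9160 genes with a mean of at least 5 CPM, the genes nearest to Atp1b1 were Cdh1, the E-cadherin gene, and Mctp2. Cdh1 was at 22.5, 20.02 and 21.4 CPM in IRF4-deficient against 2.07, 1.82 and 2.32 CPM in WT replicates, at a difference of 0.26 log2 units from Atp1b1. Usp28, a deubiquitinase gene, and Pogk were nearest to Runx2, at differences of 0.06 and 0.07. Nbea and Zfp395 were nearest to Siglech, at 0.22 and 0.23. Hipk1, a nuclear kinase gene, and D15Ertd621e were nearest to Bcl11a, at 0.03 each, and Grpel1 and Noc2l to Tcf4, at 0.03 and 0.04. Cdc42bpa lay at 0.40 from Ly6d. Within the 6 genes the closest pair was Tcf4 and Bcl11a (0.20) and the most distant Atp1b1 and Bcl11a (1.92).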

How the data were processed

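The values are raw counts by gene symbol that the authors deposited for 6 libraries in 1 table of 14535 rows, without normalization. STAR, HTSeq and DESeq2 are named as tools, without versions, and mm10 as build, per the submitters' processing notes. How strand was treated, the annotation and the row filter: not given in the sources used here. WT columns were matched to samples through the labels' source names. No column was left unused, and 0 rows lacked a gene name.

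Genes were kept by filterByExpr and tested with edgeR 4.0.16 (R 4.3.3) by the quasi-likelihood test with TMM scaling, robust shrinkage and Benjamini-Hochberg adjustment over 11934 genes. The SE comes from the F statistic. Replicates differed beyond counting noise (chi-square per degree of freedom 7.66 to 15.9). On simulated data 31.3%, 71.6% and 89.4% of genes changed 1.5-fold, 2-fold and 4-fold were recovered among 11778 genes, with 6 false calls among 134. Locations and exon lengths come from GENCODE M21 on GRCm38, and sequences from RefSeq, where 4 of the 6 genes had a window.

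The members and lists were chosen with earlier results of these data known. Named are the 6 genes, list genes, Irf4 and the 2 nearest profiles per member. Some genes that were tested and counted are not reported here by name. Nme7 and Runx2os1 are named for their overlap with members. Alternatives were DESeq2 1.42.0, other scaling factors, other filters, limma-voom (limma 3.58.1), no robust shrinkage, a replicate block, removal of Rn45s and Malat1, and leaving out each library.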

Additional observations from a re-analysis of the deposited data

How the results depend on the processing

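Over 15 alternatives to the edgeR fit, Atp1b1 and Runx2 were called higher in each, with log2 fold changes of 3.34 to 3.91 and 0.92 to 1.11. The number of the 6 genes called was 4 in each of the 9 alternatives that kept all libraries and 2 to 4 when 1 library was left out, falling to 2 (Atp1b1 and Runx2) without IRF4-deficient replicate 2 and without WT replicate 2. When 1 library was left out the log2 fold change ranged from 0.86 to 1.71 for Siglech, from -0.31 to -0.24 for Bcl11a, from -0.082 to 0.063 for Tcf4 and from -0.41 to 1.11 for Ly6d, and neither Tcf4 nor Ly6d was called in any alternative that tested it. Ly6d was not tested under the filter of at least 5 CPM in 3 libraries. With upper-quartile factors the log2 fold change of Tcf4 was -0.00028. The causes were not tested.

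Deviations of same-numbered libraries from their group means correlated at -0.005, 0.05 and -0.01. With 3 libraries per group these values cannot show whether same-numbered libraries shared a day or other source of variation, and the labels do not say. With the replicate number as a block 2267 genes were called against 2429 without it, of the 6 genes 3 were higher and 1 lower, and of the further pDC genes 12 were called against 13. Siglech and Ly6d, at 207 and 113 counts in IRF4-deficient against 74 and 61 in WT libraries, rest on the fewest counts of the 6 genes.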
